A study of Homo sapiens with 9 samples.

Results

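CDHR3, WNT2B, CORO2B, C1orf127 and AC007569.1 are 5 of the 60656 genes in a count table from RIVA cells, an established human line of diffuse large B-cell lymphoma (DLBCL). They were chosen from the measurements themselves. Among 201 genes called lower with both BCL10 mutants than with empty vector, 200 had no overlap between mutant and vector libraries, and these 5 had the lowest mean log2 fold change. Called genes had an adjusted p below 0.05 and differed by 1.5-fold or more, and the 201 genes were 1.32% of the 15251 genes tested in both comparisons. The decreases against vector are therefore given below as a description of the choice, without a test. Calls kept or lost when 1 library was left out describe the same choice and are not separate support. The mean of the 2 log2 fold changes was -1.74 for CDHR3, -1.72 for AC007569.1, -1.59 for WNT2B, -1.54 for CORO2B and -1.53 for C1orf127. Just outside stood HHIP, which encodes a hedgehog-binding protein, at -1.52, KIAA1614 at -1.48 and AC016168.3 at -1.47.

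Polyadenylated RNA was sequenced from 3 groups of 3 libraries. All cells carried a doxycycline-inducible plvx-Tetone lentiviral construct and received doxycycline for 24 h, at an amount that one label field gives as 200 per ml and another as 200 per microlitre, both in ng. The vector group carried the empty construct and is labelled wild type for BCL10, the S136X group expressed a truncated BCL10, and the R58Q group expressed BCL10 changed in its caspase recruitment domain (CARD). Cells with added wild-type BCL10 were not analysed here, so the mutation and the higher amount of BCL10 cannot be told apart. BCL10 itself had 885 to 1268 counts in the vector libraries, 9838 to 14293 with S136X and 10117 to 10596 with R58Q. The column headers date the R58Q libraries later than the other 6, so construct and date cannot be told apart in either comparison with R58Q. The labels do not say whether the libraries of a group came from separate cultures, the study calls them biologic replicates, and the spread between libraries may hold technical variation.

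BCL10 is an adaptor protein that binds MALT1 and carries signals from the B-cell receptor to NF-kB and JNK. The 5 genes are not known as one pathway. WNT2B is a secreted Wnt ligand, which binds Frizzled receptors on the cell surface. CDHR3 is a cadherin-related membrane protein best known from ciliated airway cells, where rhinovirus C uses it as a receptor. CORO2B belongs to the coronins, which bind actin filaments. C1orf127, named CIROZ in RefSeq after the ciliated left-right organizer, is known from the embryonic structure that sets left and right. AC007569.1 is a long non-coding RNA gene, and no function is given for it here.

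The promoters of the genes are shown because the genes were low together in cells with mutants of an NF-kB adaptor. RefSeq (GRCh38.p14) start sites matched 4 of the 5 genes, C1orf127 under its newer symbol, and no entry was matched for AC007569.1. Each window runs from 250 bases before a start to 50 after it, 5′ to 3′ on the gene's strand. Capitals mark a match to the NF-kB consensus or to the hexamer TATAAA. The CDHR3 window lies at chr7:105963014-105963313 (plus strand), well inside the gene as the count table places it and not at its listed start. WNT2B has 2 windows, at chr1:112466291-112466590 and chr1:112508715-112509014 (plus strand). Of the 5 CORO2B windows, the one shown, at chr15:68578743-68579042 (plus strand), holds the start that the count table lists. The C1orf127 window lies at chr1:10982027-10982326 (minus strand).
CDHR3: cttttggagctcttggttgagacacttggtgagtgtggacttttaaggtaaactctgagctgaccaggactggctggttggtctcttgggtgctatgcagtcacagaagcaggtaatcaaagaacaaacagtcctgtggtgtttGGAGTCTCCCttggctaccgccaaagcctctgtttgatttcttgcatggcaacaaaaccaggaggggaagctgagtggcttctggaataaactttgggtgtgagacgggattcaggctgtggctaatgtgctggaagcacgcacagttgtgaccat
WNT2B, first window: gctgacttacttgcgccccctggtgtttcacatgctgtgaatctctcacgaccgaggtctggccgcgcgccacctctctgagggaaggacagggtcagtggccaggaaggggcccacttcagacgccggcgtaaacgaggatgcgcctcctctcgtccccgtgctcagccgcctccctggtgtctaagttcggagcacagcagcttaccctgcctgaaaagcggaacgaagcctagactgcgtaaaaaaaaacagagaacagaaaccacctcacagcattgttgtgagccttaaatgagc
WNT2B, second window: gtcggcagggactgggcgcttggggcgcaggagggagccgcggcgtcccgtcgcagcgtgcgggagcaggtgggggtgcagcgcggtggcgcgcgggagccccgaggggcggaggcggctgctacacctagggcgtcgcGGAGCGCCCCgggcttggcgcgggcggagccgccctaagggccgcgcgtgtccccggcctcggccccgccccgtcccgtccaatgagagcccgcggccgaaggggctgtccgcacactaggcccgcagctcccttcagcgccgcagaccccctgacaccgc
CORO2B: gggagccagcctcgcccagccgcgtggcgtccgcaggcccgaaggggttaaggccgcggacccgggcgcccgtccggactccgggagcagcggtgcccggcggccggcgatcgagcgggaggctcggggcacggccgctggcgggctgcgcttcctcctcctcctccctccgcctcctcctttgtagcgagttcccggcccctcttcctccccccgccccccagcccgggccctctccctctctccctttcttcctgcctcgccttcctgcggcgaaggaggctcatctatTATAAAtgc
C1orf127: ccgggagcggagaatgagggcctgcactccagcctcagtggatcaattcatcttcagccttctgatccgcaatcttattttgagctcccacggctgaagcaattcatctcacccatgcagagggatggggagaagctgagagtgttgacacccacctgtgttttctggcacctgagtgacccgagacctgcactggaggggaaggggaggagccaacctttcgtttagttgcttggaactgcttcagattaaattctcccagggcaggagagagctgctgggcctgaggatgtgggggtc

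An NF-kB consensus match stood at bases 145 to 154 of the CDHR3 window and at bases 140 to 149 of the second WNT2B window, both read on the opposite strand. Of 35116 RefSeq windows of the same length, 11.3% held such a match. The hexamer TATAAA stood at bases 292 to 297 of the CORO2B window shown, after the start site, and 11.5% of all windows held it. Searches on both strands for AP-1 (TGANTCA, 7.71% of all windows), EBF1 (its palindromic consensus, not spelled out here, 1.21%), BCL6 (TTCCTNGAA, 1.56%) and PU.1 (GAGGAAGT, 2.59%) found no match in any window of the 4 genes. A further TATA match, on the opposite strand, lay in another CORO2B window. None of the matches in these windows overlapped another. The windows differed in base composition. The second WNT2B window held 43 CpG sites and the CORO2B window 33, against a median of 14 over all windows, while the C1orf127 window held 6 and the CDHR3 window 3. These matches describe letters only, and binding was not measured. Neither the first WNT2B window nor the C1orf127 window held a match to any of the motifs searched.

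All 5 genes were measured at low counts. Total counts ran from 28047713 to 33122267 per library. In the vector libraries, AC007569.1 had the highest level per length, 5.17 ± 1.36 CPM (counts over TMM-scaled library size) per kilobase of exon (SD, n = 3). C1orf127 followed at 1.05 ± 0.0921, CDHR3 at 0.389 ± 0.182, CORO2B at 0.254 ± 0.0322 and WNT2B at 0.0492 ± 0.00048. The WNT2B SD is below counting error, as given for that gene below. Only CDHR3 and CORO2B overlapped among neighbours in this order, with vector libraries from 0.282 to 0.599 and from 0.223 to 0.287. In neither mutant group did WNT2B or CORO2B reach the low-count minimum in 3 libraries, so both entered the comparisons with vector through the vector libraries. In bulk RNA, fewer cells expressing a gene and less RNA per cell cannot be told apart.

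**Figure D1:**
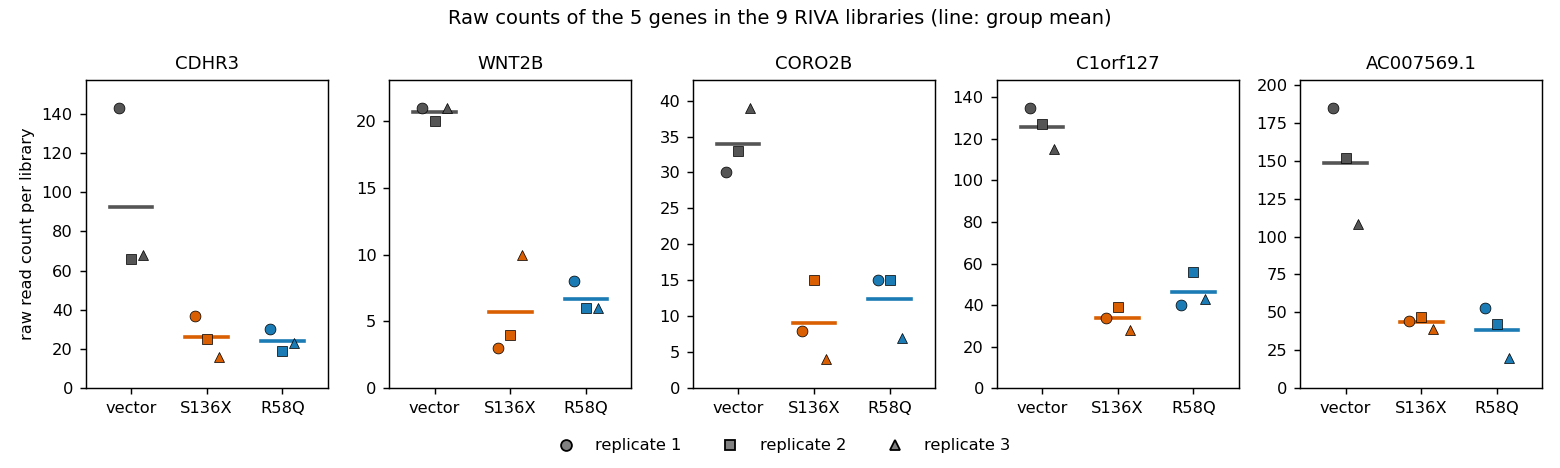
Raw read counts (linear axes from 0) of the 5 genes in each of the 9 libraries, with the group mean as a line and the marker giving the replicate number. In each panel the 3 vector libraries lie above all 6 mutant libraries, while the mutant groups lie close together.

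CDHR3 (ENSG00000128536.16), the cadherin-related gene, lies at chr7:105876796-106036432 on the plus strand. It had 143, 66 and 68 counts in vector replicates 1, 2 and 3. It had 37, 25 and 16 with S136X, and 30, 19 and 23 with R58Q. Replicate 1 was the highest library in all 3 groups, and vector replicate 1 was more than 2 times the other vector libraries. The lowest vector library was still above the highest mutant library. Levels were 2.75 ± 1.29 CPM with vector, 0.867 ± 0.36 with S136X and 0.783 ± 0.2 with R58Q (SD, n = 3 each). The fitted log2 fold change against vector was -1.66 (SE 0.393) with S136X, the 12th lowest of 282 genes called lower. It was -1.81 (SE 0.361) with R58Q, the 14th lowest of 546. Compared within replicate numbers, S136X held 29.8%, 38.4% and 28% of the vector level, and R58Q 23.8%, 31.5% and 35.2%. These shares varied less than the vector libraries themselves did. Without vector replicate 1 the changes were smaller, -1.20 with S136X and -1.35 with R58Q. The S136X call was lost without vector replicate 1, vector replicate 2, S136X replicate 2 or S136X replicate 3, and the R58Q call in none of the 6 such fits. Those fits did not use the replicate numbers. With the replicate number added to the fit and no library left out, the changes were -1.65 (SE 0.214) with S136X and -1.78 (SE 0.213) with R58Q.

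WNT2B (ENSG00000134245.18), the Wnt ligand, lies at chr1:112466541-112530165 on the plus strand. It had 21, 20 and 21 counts in the vector libraries, 3, 4 and 10 with S136X, and 8, 6 and 6 with R58Q. The vector libraries were nearly equal, and S136X replicate 3 stood above the other 5 mutant libraries without reaching the vector range. Levels were 0.618 ± 0.00603 CPM with vector, 0.192 ± 0.138 with S136X and 0.218 ± 0.0456 with R58Q (SD, n = 3 each). With so few counts, counting error is a large part of each mutant value. The vector SD, 0.577 in counts, was below the 4.55 of counting error alone, so it understates the error of the vector level. The log2 fold change was -1.68 (SE 0.441) with S136X and -1.49 (SE 0.303) with R58Q. Within replicate numbers, S136X held 16.4%, 20.3% and 56.8% of the vector level, and R58Q 43.3%, 32.8% and 29.7%. Leaving out S136X replicate 3 moved the S136X change to -2.39, and this was the only one of 6 such fits in which its call was kept. The R58Q call was lost without R58Q replicate 3, at -1.38. The WNT2B transcript shares 26.1% of its 31-base words with other genes, and 2661 exon bases (21.2% of its exons) overlap ST7L on the opposite strand. ST7L had 109 to 117 counts with vector, 78 to 89 with S136X and 81 to 98 with R58Q, with log2 fold changes of -0.27 and -0.23 that were not called (edgeR adjusted p 0.302 and 0.28). The counting program's strand setting is not given in the sources used here, so reads from this overlap cannot be told apart.

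CORO2B (ENSG00000103647.13), the coronin, lies at chr15:68578993-68727806 on the plus strand. It had 30, 33 and 39 counts with vector, 8, 15 and 4 with S136X, and 15, 15 and 7 with R58Q. Replicate 3 was the highest vector library and the lowest library of both mutant groups, and no mutant library came within the vector range. Levels were 1.02 ± 0.129 CPM with vector, 0.293 ± 0.163 with S136X and 0.407 ± 0.167 with R58Q (SD, n = 3 each). The log2 fold change was -1.76 (SE 0.38) with S136X and -1.33 (SE 0.337) with R58Q. Within replicate numbers the S136X libraries held 30.7%, 46.1% and 12.2% of the vector level, and the R58Q libraries 56.8%, 49.7% and 18.7%. On the log2 scale this was the widest spread of the 5 genes in both comparisons. The S136X call was lost without vector replicate 2, vector replicate 3 or S136X replicate 3, with changes from -2.26 to -1.43 over the 6 such fits. The R58Q call was lost without vector replicate 2, vector replicate 3 or R58Q replicate 3, with changes from -1.50 to -1.01.

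C1orf127 (ENSG00000175262.14), the left-right organizer gene, lies at chr1:10946471-10982037 on the minus strand. It had 135, 127 and 115 counts with vector, 34, 39 and 28 with S136X, and 40, 56 and 43 with R58Q. The 3 groups did not overlap, with S136X lowest, R58Q between and vector highest. Levels were 3.76 ± 0.329 CPM with vector, 1.12 ± 0.12 with S136X and 1.51 ± 0.312 with R58Q (SD, n = 3 each). The log2 fold change was -1.74 (SE 0.187) with S136X and -1.32 (SE 0.195) with R58Q, the smallest errors of the 5 genes. Within replicate numbers, S136X held 29%, 31.2% and 29% of the vector level, the narrowest spread among the genes, and R58Q 33.6%, 48.2% and 38.9%. Neither call was lost when any 1 library was left out.

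AC007569.1 (ENSG00000257221.4), the long non-coding RNA gene, lies at chr12:108628668-108642349 on the plus strand. It had 185, 152 and 108 counts with vector, 44, 47 and 39 with S136X, and 53, 42 and 20 with R58Q. The S136X libraries were close together, R58Q replicate 3 was well below the other two, and all 6 stood far under the lowest vector library. Levels were 4.44 ± 1.17 CPM with vector, 1.44 ± 0.0687 with S136X and 1.27 ± 0.599 with R58Q (SD, n = 3 each). The log2 fold change was -1.62 (SE 0.231) with S136X and -1.82 (SE 0.359) with R58Q. Within replicate numbers, S136X held 27.4%, 31.4% and 43% of the vector level, and R58Q 32.5%, 30.2% and 19.2%. Neither call was lost when any 1 library was left out.

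**Figure D2:**
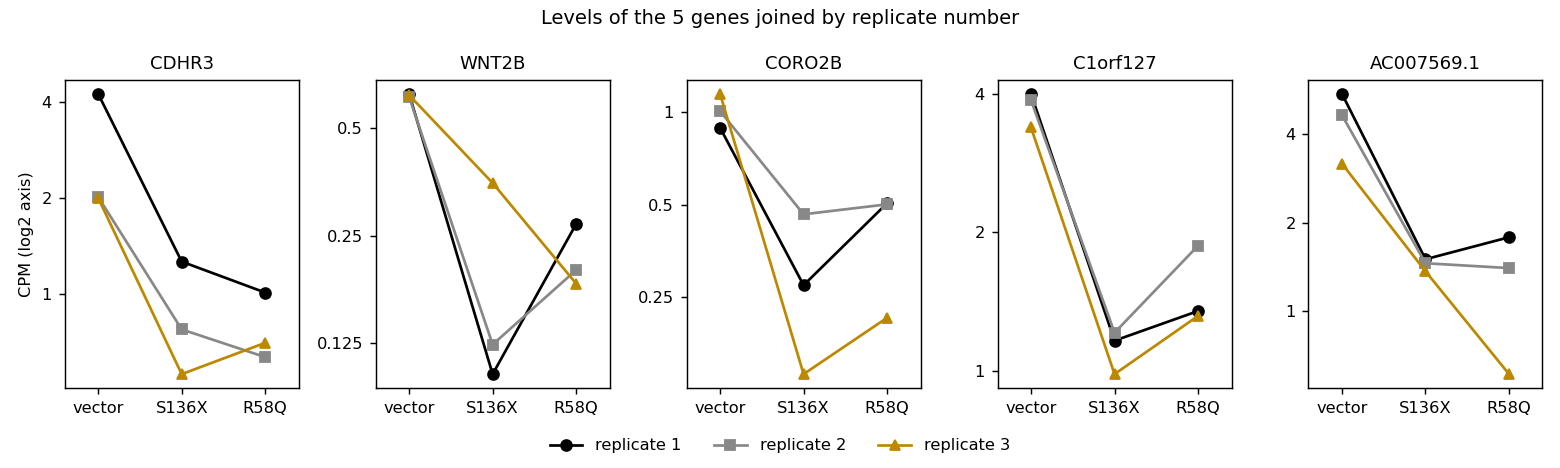
CPM on a log2 axis for the 5 genes, with lines joining libraries of the same replicate number across vector, S136X and R58Q. Every line runs downward from vector to both mutants, nearly in parallel for C1orf127 and with the widest spread on this scale for CORO2B, where S136X held 12.2% to 46.1% of the vector level.

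Since both comparisons use the same 3 vector libraries, a high vector value lowers both fold changes, and the 2 columns of values are not independent. Of all genes tested, 1.82% were called lower with S136X and 3.54% with R58Q, and in 15.4% and 19.2% every mutant library was below every vector library. All 5 genes were so by the rule, and nothing is read from that count. The median log2 fold change over all genes tested was -0.02 with S136X and -0.03 with R58Q. Over the 9 libraries, log2 CPM of the pairs among the 5 genes had Pearson r from 0.65 to 0.89, which the shared difference from vector fixes in large part. After removing group means, r ran from -0.47 to 0.53, lowest between WNT2B and C1orf127 and highest between CORO2B and C1orf127. These r describe 9 libraries that share their groups.

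The comparison of R58Q with S136X asks whether the 2 mutants differ in the level of these genes, and it does not use the vector libraries. The genes were chosen for being low in both mutants, which by itself favours small differences here. By edgeR, 0 of the 4 genes tested were called, 0 had an unadjusted p under 0.05, and limma-voom and DESeq2 also called 0, DESeq2 giving no adjusted p for CORO2B. Of all genes tested, 0.434% were called. CDHR3 differed by -0.16 on the log2 scale (95% interval -0.95 to 0.64, edgeR adjusted p = 0.944), and AC007569.1 by -0.21 (-1.02 to 0.61, adjusted p = 0.913). Both intervals reach to about 2-fold lower values with R58Q. CORO2B differed by 0.43 (-0.74 to 1.59, adjusted p = 0.861) and C1orf127 by 0.42 (-0.09 to 0.94, adjusted p = 0.565). C1orf127 was higher in each R58Q library than in all S136X libraries, the only one of the 4 without overlap, and this small gap did not pass the test. Over all genes tested, 9.45% had every R58Q library above every S136X library. WNT2B was under the low-count minimum in these 6 libraries, and with no such filter it differed by 0.19 (SE 0.573, edgeR adjusted p = 0.946).

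**Figure D3:**
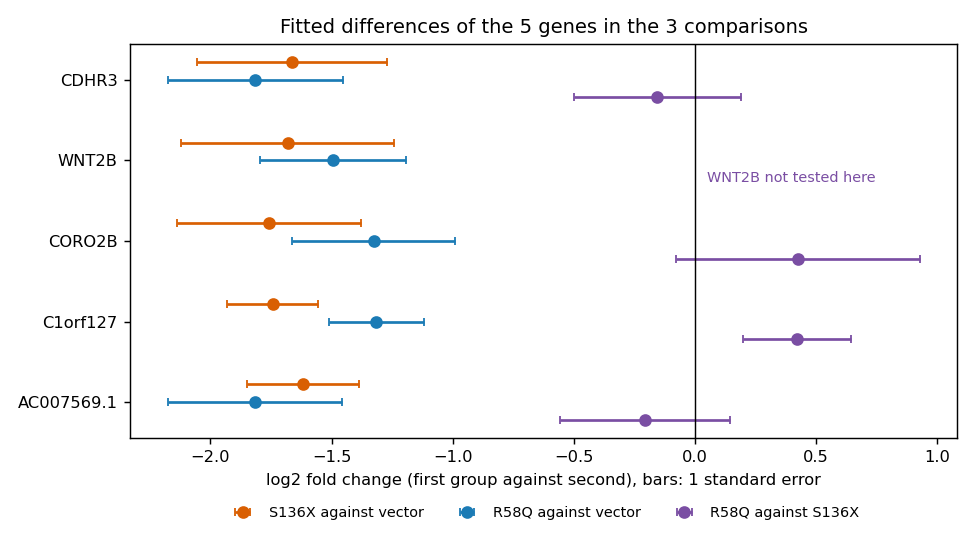
Fitted log2 fold change of each gene (points, bars of 1 standard error) for S136X against vector, R58Q against vector and R58Q against S136X. The points against vector lie between -1.82 and -1.32, and those between the mutants between -0.21 and 0.43.

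Among the nearest and overlapping tested genes, SELPLG at the AC007569.1 locus was called lower in both comparisons. AC007569.1 overlaps SELPLG, which encodes PSGL-1, the leukocyte ligand of P-selectin, and lies on the opposite strand at chr12:108621895-108633894. No exon base is shared between them in GENCODE 29, but the positions in the count table differ from that annotation and the strand setting is not given, so shared reads cannot be told apart. SELPLG had 245, 213 and 238 counts with vector, 108, 107 and 74 with S136X, and 105, 99 and 85 with R58Q. No mutant library came near the vector range. SELPLG fell by 1.11 on the log2 scale with S136X (SE 0.164, edgeR adjusted p = 0.00521) and fell by 1.14 with R58Q (SE 0.155, edgeR adjusted p = 0.00239), and no alternative ended either call. Between the mutants it differed by -0.03 (edgeR adjusted p = 0.982). ISCU, an iron-sulfur cluster scaffold gene 59300 bases before AC007569.1, had log2 fold changes of -0.29 (edgeR adjusted p = 0.0185) and -0.41 (adjusted p = 0.00754), less than 1.5-fold. CORO1C, a coronin gene 2760 bases after it, was at -0.20 and -0.28 (edgeR adjusted p 0.328 and 0.154).

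**Figure D4:**
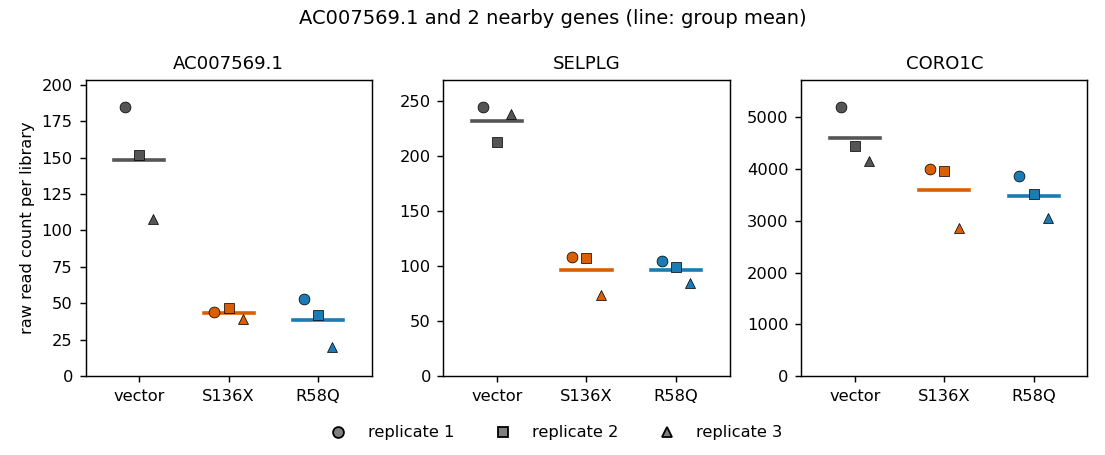
Raw read counts (linear axes from 0) in the 9 libraries for AC007569.1, the overlapping gene SELPLG and the nearby gene CORO1C, with group means as lines. In raw counts, not scaled for library size, the vector libraries stand above every mutant library in all 3 panels. Scaled, CORO1C was at 138 ± 16 CPM with vector, 120 ± 18.5 with S136X and 114 ± 18.8 with R58Q (SD, n = 3 each). The CORO1C difference (log2 fold change -0.20 and -0.28) was not called and is far smaller than that of SELPLG (-1.11 and -1.14).

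At the other loci no neighbouring gene was called without the replicate block. ATXN7L1, whose coordinates end 192 bases before CDHR3, had 31, 17 and 7 counts with vector, 12, 7 and 4 with S136X, and 11, 5 and 5 with R58Q. Replicate 1 was highest in each group, as for CDHR3, and the groups overlapped. Its log2 fold changes were -1.09 (SE 0.589, edgeR adjusted p = 0.276) and -1.25 (SE 0.592, edgeR adjusted p = 0.167). Without vector replicate 1 they were -0.48 and -0.64. In the fit blocked by replicate number, ATXN7L1 was called lower with R58Q, at -1.21 (edgeR adjusted p = 0.0318), where 5.87% of all genes were called lower, and not with S136X, at -1.07 (edgeR adjusted p = 0.0604). SYPL1, on the other side of CDHR3, was at 0.08 and 0.05. CTTNBP2NL before WNT2B was at -0.15 and -0.25, and CAPZA1 after it at 0.01 and 0.13. For CORO2B, FEM1B was at 0.03 and -0.05 and ANP32A at 0.20 and 0.21. CASZ1, a zinc-finger factor beside C1orf127, had 0.27 with S136X and 0.57 with R58Q (edgeR adjusted p 0.289 and 0.0258), under 1.5-fold, and TARDBP was at 0.02 and 0.10. Other genes overlapping these loci, AC004836.1, AL354760.1 and MIR4496, had at most 1 count in any library.

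WNT2B was then set beside the rest of the Wnt pathway, in which ligands bind Frizzled and co-receptors and act through beta-catenin or other routes. Of 82 listed genes, 51 were tested with S136X and 52 with R58Q. The S136X test called 2 lower, ROR1 and WNT2B, and the R58Q test 3, those 2 and FZD8. WNT2B was chosen for these calls. Without it, 1 of 50 was called lower with S136X and 2 of 51 with R58Q, against 1.82% and 3.54% of all genes. None was called higher by edgeR, DESeq2 or limma-voom, and at an unadjusted edgeR p under 0.05 there were 6 higher and 12 lower with S136X, and 5 and 18 with R58Q. Of all genes tested, 3.87% were called with S136X (2.05% higher) and 7.63% with R58Q (4.09% higher). The share of all genes at the unadjusted threshold is not given here. Counts at that threshold, for this list and those below, are therefore not read as a result about a list. The median log2 fold change of the Wnt list without WNT2B was -0.08 with S136X and -0.18 with R58Q. ROR1, a receptor for Wnt ligands known from chronic lymphocytic leukaemia cells, had 2379, 1780 and 1835 counts with vector, 1107, 1104 and 816 with S136X, and 1164, 963 and 961 with R58Q. It fell by 0.83 on the log2 scale in both comparisons (edgeR adjusted p 0.00697 and 0.00506), and every mutant library was below the vector range.

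FZD8, a Frizzled receptor, had 112, 97 and 92 counts with vector, 62, 51 and 54 with S136X, and 52, 50 and 60 with R58Q. Neither mutant group overlapped vector. FZD8 fell by 0.77 with R58Q (edgeR adjusted p = 0.0154), a call lost without vector replicate 2, with changes from -0.84 to -0.68 over the 6 fits that left out 1 library. With S136X the FZD8 change of -0.69 was not called (edgeR adjusted p = 0.0556). It was called in 5 alternative edgeR fits. Their adjusted p values were 0.0209 (replicate block), 0.0269 (all 9 libraries), 0.0434 (total counts), 0.0492 (no filter) and 0.0495 (at least 10 counts in every library). When 1 library was left out it was not called, with edgeR adjusted p up to 0.161. SFRP5, a secreted Wnt inhibitor, was not called, at -1.39 and -1.25 (edgeR adjusted p 0.0637 and 0.0508), and was called lower with the replicate block in both comparisons, at -1.33 and -1.20 (edgeR adjusted p 0.0313 and 0.0206), where 3.63% of all genes were called lower with S136X. Among the ligands beside WNT2B, 0 of 7 tested with S136X and 0 of 9 with R58Q were called in the main fits. These were edgeR with TMM scaling, the low-count filter and all 6 libraries, DESeq2 and limma-voom. With WNT2B counted, 0 ligands were higher and 3 lower at an unadjusted edgeR p under 0.05 for S136X, and 1 and 4 for R58Q. WNT3, another ligand, was at -0.57 and -0.54 (edgeR adjusted p 0.000887 and 0.00233), under 1.5-fold. It was called lower in both comparisons with upper-quartile normalization (-0.61 and -0.61) and with total counts only (-0.62 and -0.60). With no filter, WNT11 (-1.70, edgeR adjusted p = 0.0478) and WNT9B (-1.53, edgeR adjusted p = 0.0484) were called lower with S136X. The share of all genes called in those fits is not given here. Of 14 receptors and co-receptors tested, 1 had a fitted value above 0 in each comparison, FZD5. Of all genes tested, 53.1% were below 0 with S136X and 53.6% with R58Q, and both comparisons share the vector libraries. The list of intracellular components had 0 of 16 called with S136X and 0 of 15 with R58Q, with 4 higher and 1 lower at an unadjusted edgeR p under 0.05 for S136X and 2 and 4 for R58Q. The 9 tested target genes had medians of -0.08 and -0.09.

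**Figure D5:**
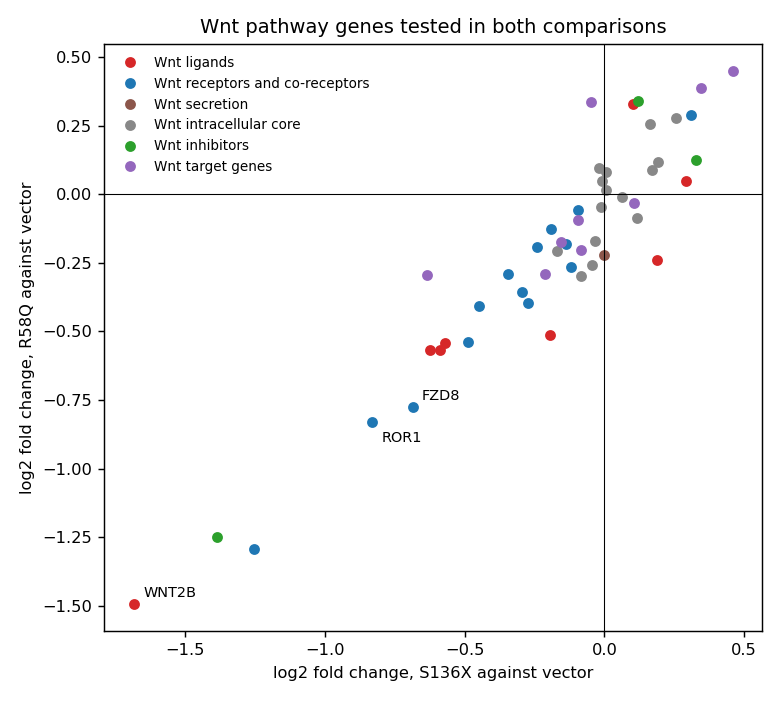
Log2 fold change with S136X (horizontal) and R58Q (vertical) against vector for the 50 Wnt pathway genes tested in both, coloured by role, with the 3 genes called in either comparison named. WNT2B, chosen for its low values on these axes, lies at -1.68 and -1.49, ROR1 at -0.83 on both and FZD8 at -0.69 and -0.77, and both axes share the vector libraries.

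Of the 6 coronins beside CORO2B, 0 were called in either comparison by edgeR with all 6 libraries, DESeq2 or limma-voom. By edgeR, 3.87% and 7.63% of all genes were called. With CORO2B counted, 0 coronins were higher and 4 lower at an unadjusted edgeR p under 0.05 in both. CORO1A, the main coronin of lymphocytes, was at -0.13 and -0.04 with S136X and R58Q, and CORO1B at -0.26 and -0.28 (edgeR adjusted p 0.0397 and 0.0431), under 1.5-fold. CORO2A was at -0.33 and -0.47 (edgeR adjusted p 0.166 and 0.0707). The median of these 6 was -0.27 with S136X and -0.28 with R58Q. A list of 15 tested genes held the Arp2/3 complex and cofilins, which branch and cut actin filaments. It also held SSH1, SSH2 and SSH3, which are neither. Of the 15, 0 were called by edgeR, DESeq2 or limma-voom in either comparison. At an unadjusted edgeR p under 0.05, 2 were higher and 3 lower with S136X, and 4 and 3 with R58Q. The medians of the 15 were 0.04 and 0.12. SSH1, SSH2 and SSH3 were at -0.30, -0.27 and -0.27 with S136X, and at -0.45, -0.24 and -0.50 with R58Q. Fitted values were above 0 for 10 of the 15 with S136X and for 11 with R58Q.

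Of the 7 cadherin-related genes tested beside CDHR3, 0 were called in either comparison by edgeR with TMM scaling and all 6 libraries, DESeq2 or limma-voom. With CDHR3 counted, 0 were higher and 6 lower at an unadjusted edgeR p under 0.05 in both. Without the share of all genes at that threshold, this count is not read as a result. CELSR1, a planar polarity cadherin, was at -0.44 and -0.40 (edgeR adjusted p 0.00454 and 0.00415), CELSR2, of the same family, at -0.45 and -0.58 (0.0162 and 0.00269 by edgeR) and CLSTN3, a calsyntenin, at -0.41 and -0.39 (0.00993 and 0.0109 by edgeR), all under 1.5-fold. CELSR2 was called lower with R58Q with upper-quartile normalization (-0.64, edgeR adjusted p = 0.00187) and total counts (-0.64, edgeR adjusted p = 0.00192). It was also called without vector replicate 2 or R58Q replicate 1. The median of the 7 genes beside CDHR3 was -0.41 with S136X and -0.40 with R58Q. Of classical cadherins and catenins, 3 of 14 listed genes were tested and edgeR called 0 in either comparison, with 1 higher and 0 lower at an unadjusted p under 0.05 for S136X and 1 of each for R58Q. With the replicate block or with no low-count filter, CDH1 (E-cadherin) was called higher, at 1.29 and 1.36 with the block (edgeR adjusted p 0.00154 and 0.000282), in fits that called 6.53% and 10.7% of all genes. Without the block it was not called (edgeR adjusted p 0.137 and 0.0837). CDH1 had 59, 53 and 134 counts with vector, 77, 162 and 317 with S136X, and 106, 124 and 391 with R58Q. Replicate 3 was highest in each group, and the groups overlapped.

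Of 25 left-right axis and motile cilia genes, 9 were tested. C1orf127 was called lower in both comparisons, for which it was chosen. Of the other 8, 0 were called with S136X and 1 with R58Q, DNAH11, an axonemal dynein heavy chain. Of all genes tested, 1.82% were called lower with S136X and 3.54% with R58Q. DNAH11 had 56, 30 and 36 counts with vector, 42, 40 and 26 with S136X, and 16, 19 and 21 with R58Q. The R58Q libraries were below all others, and the S136X and vector libraries overlapped. Its log2 fold change was -0.999 with R58Q (edgeR adjusted p = 0.0445), a call lost in each of the 6 fits without 1 library (-1.16 to -0.69), and -0.02 with S136X (edgeR adjusted p = 0.975). Between the mutants it differed by -0.98 (edgeR adjusted p = 0.165), or -0.97 with the replicate block (edgeR adjusted p = 0.0177, where 2.94% of all genes were called). FOXJ1, the main transcription factor of motile cilia, was at 0.25 and 0.38 (edgeR adjusted p 0.775 and 0.586). The medians of the 8 genes beside C1orf127 were -0.28 with S136X and -0.43 with R58Q.

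Markers of other cell types were low beside those of B cells. All 7 B-cell markers had counts in every library, with summed levels of 2389 to 3101 CPM. Of 6 ciliated-cell markers the sum was 0.489 to 1.06 CPM with vector, 0.513 to 1.16 with S136X and 0.64 to 1.07 with R58Q, and TEKT1 was at 0 in all libraries. Of 6 epithelial markers KRT19 was at 0 in all libraries and EPCAM had 1019 to 1751 counts, with sums of 44.6 to 58.4 CPM with vector, 41.5 to 70.7 with S136X and 41.9 to 71.4 with R58Q. Of 6 T-cell markers the sums ran from 7.14 to 15.4 CPM, with CD3D at 0 in both mutant groups and CD3G in the vector and R58Q groups. The other T-cell markers had counts in every library. CD8A had 81 to 215, TRAC 33 to 367, CD4 9 to 62 and CD3E 1 to 9. Of 6 monocyte markers the sums were 0.273 to 0.647 CPM, with FCGR3A at 0 in all libraries. The summed ciliated-cell and epithelial levels overlapped between vector and mutants. CDHR3 and C1orf127 did not overlap by the rule that chose them, so nothing is read from that contrast. The part of such cells in the levels of these genes was not tested.

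Genes whose log2 CPM was most like that of each member over the 9 libraries were named, from 15859 genes, by Pearson r alone. For CDHR3 these were CCDC112 (0.99), MYO3A (0.99) and ENPP2 (0.99), none of which changed by 1.5-fold. For WNT2B they were TMEM80 (0.97), PIDD1 (0.97) and CABP4 (0.96), of which CABP4 was called lower in both comparisons by edgeR. For CORO2B they were FCER2 (0.98), which encodes CD23, the low-affinity IgE receptor of B cells, UGT8 (0.98) and RB1 (0.97). For C1orf127 they were CCNG2 (0.99), an atypical cyclin, OR13A1 (0.98) and ACOXL-AS1 (0.98), all 3 called lower in both comparisons by edgeR. For AC007569.1 they were ZBTB18 (0.98), a transcriptional repressor, IQCD (0.97) and CD6 (0.97), also called lower in both. With group means removed, r was 0.97 to 0.98 for the genes named for CDHR3 and lowest for those named for C1orf127, at 0.64 for ACOXL-AS1 and 0.73 for OR13A1. These were the highest of many r values over 9 libraries that share groups and replicate numbers, so values this high describe the libraries only.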

How the data were processed

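RNA-seq was analysed for 9 libraries of RIVA cells, 3 each of vector, S136X and R58Q. The authors deposited 1 table of read counts per gene with a normalized signal per library beside them, which equals the counts times 1 constant per library and was not used in tests. The submitters' processing notes name cutadapt, STAR, Picard and hg38, without versions or order. The counting program, its strand setting and the annotation are not given in the sources used here. Of the 60656 identifiers, 96.3% were in GENCODE 29 (GRCh38), and the positions of 99.9% of those overlapped. No column or identifier lacked a sample or a gene.

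The 6 libraries of each comparison were fitted with edgeR 4.0.16 (R 4.3.3, limma 3.58.1) after TMM scaling, for genes kept by filterByExpr at a minimum count of 10 and a minimum total of 15. The quasi-likelihood test was used, with p-values adjusted by Benjamini-Hochberg. A called gene had an adjusted p below 0.05 and differed by 1.5-fold or more. Standard errors are the log2 fold change over the root of F, and CPM used TMM factors. The scripts were tested on simulated data. Alternatives were DESeq2 1.42.0, limma-voom, other normalizations and filters, all 9 libraries in 1 fit, a replicate-number block and leaving out each library. Across groups, deviations of same-numbered libraries had r from 0.143 to 0.626 (9 pairs, median 0.425). Those of other pairs ran from -0.459 to 0.169 (18 pairs, median -0.251). The numbers come from the sample titles. Same-numbered libraries were more alike in the median, but the ranges overlap. Vector replicate 2 had r of 0.143 with S136X replicate 2 and 0.163 with R58Q replicate 2, so pairing by number is not settled. Replicate pairs differed by more than counting error, with chi-square values of 7.91 to 25.6 per degree of freedom.

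The members and gene lists were chosen with earlier results of these data known. Named genes are the 5 members, the 3 ranked next, list genes called in any comparison (at most 4 per list and comparison), each member's overlapping and nearest tested genes, and the 3 with the highest r over 9 libraries. WNT3, WNT9B, WNT11, FZD5, SFRP5, CDH1, FOXJ1, the CELSR, CLSTN3 and SSH genes and the other coronins were named after their values were seen.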

Additional observations from a re-analysis of the deposited data

How the results depend on the processing

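The number of the 5 called lower with S136X was 3 by DESeq2, which gave no adjusted p for WNT2B and CORO2B, and 3 when at least 10 counts were required in every library, which removes the same genes. Leaving out 1 library gave 2 to 4, with 2 without vector replicate 2. With R58Q it was 3 under the stricter filter and 3 to 5 when 1 library was left out, with 3 without R58Q replicate 3. DESeq2 also gave no adjusted p for WNT2B with R58Q.

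For the Wnt list with S136X, 1 gene was called by DESeq2, 4 with total counts only, 6 with no filter, 4 with all 9 libraries in 1 fit and 1 to 2 when 1 library was left out. With R58Q, 6 were called by upper-quartile normalization and 6 by total counts, and 2 to 6 when 1 library was left out. The coronin and actin lists had 0 called with S136X by DESeq2 and 0 under the stricter filter, where CORO2B was not tested, and 0 to 1 when 1 library was left out. With R58Q they had 0 under that filter and 0 to 2 when 1 library was left out. The cadherin lists had 2 called with S136X with no filter and 0 to 2 when 1 library was left out, and with R58Q 2 by upper-quartile normalization, 2 by total counts, 2 with no filter and 1 to 3 when 1 library was left out. The cilia list with R58Q had 1 called by DESeq2, 1 by limma-voom and 1 in each fit without 1 library. These list counts include the members, which were chosen for their calls against vector. The cause of the differences between settings was not tested, beyond the genes removed by a filter.

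With the replicate block, 4 Wnt genes were called with S136X (ROR1, WNT2B, FZD8 and SFRP5), 2 cadherin genes with S136X and 2 with R58Q (CDHR3 and CDH1), and 1 cilia gene between the mutants (DNAH11). The number of all genes called rose to 1014 from 601 with S136X, and from 66 to 446 between the mutants. The block also called ATXN7L1 lower with R58Q (-1.21) and SFRP5 lower with R58Q (-1.20). All 5 members were still called lower in both comparisons, for which they were chosen. The SE fell to 0.214 for CDHR3 with S136X and to 0.191 for AC007569.1 with R58Q. It rose to 0.341 for WNT2B and to 0.344 for CORO2B, both with R58Q.

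Differences near 0 changed sign. DNAH11 with S136X was 0.0064 by limma-voom and -0.18 to 0.28 when 1 library was left out. Between the mutants, ROR1 was 0.00078 with all 9 libraries in 1 fit. When 1 library was left out, ROR1 ran from -0.129 to 0.0854, CDHR3 from -0.38 to 0.21, AC007569.1 from -0.53 to 0.13, SELPLG from -0.158 to 0.0844, FZD8 from -0.20 to 0.0056, CORO1C from -0.194 to 0.0361 and ST7L from -0.0013 to 0.0854. CDHR3 changed sign without S136X replicate 1 and AC007569.1 without R58Q replicate 3.

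Depth limits WNT2B and CORO2B most, with counts of 3 to 15 in the mutant libraries. The order of the 2 mutants was not resolved for any of the 5 genes.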
